A study of Mus musculus with 6 samples.

Results

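The CC chemokines and their receptors were followed in distal colon of mice with colitis, as the protein-coding rows of the deposited count table whose symbol is Ccl or Ccr, a number and at most 1 further letter. The rule found 40 of 54532 rows, which carry 34 symbols: 24 ligand symbols in 30 rows and 10 receptors in 10 rows. Of the ligand rows, 7 lie on unplaced scaffolds and carry the symbols Ccl19, Ccl21a, Ccl21b, Ccl21c and Ccl27a. All animals drank 3% DSS, dextran sulfate sodium, a polymer that injures the colonic epithelium, until they were killed on day 7. Poly-A RNA was sequenced in 3 libraries of wild-type label (WT 1 to WT 3) and 3 labelled Itgbl1 -/- (KO 1 to KO 3). All 6 carry the same batch label. The labels used here do not say how the Itgbl1 allele was made, and libraries without DSS were not analysed here. A replicate number is all that separates the libraries of a group, so the spread behind each p-value is that of these libraries and may be technical. Wherever 3 values stand in a row, they belong to libraries 1, 2 and 3 of a label in that order.

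Gene counts totalled 13326970 to 18321389 per library. Itgbl1, the targeted gene, had 19, 6 and 5 reads under the wild-type label against 12, 4 and 10 reads under the knockout label (edgeR log2 ratio -0.19, adjusted p = 0.9). Reads over the whole gene thus show no loss under the knockout label, so each direction below is between libraries by label only. Markers of colonic epithelium were detected in every library, but those of KO 3 summed to 88.4 CPM where the wild-type libraries reached 16851 to 25386. CPM are read counts relative to the library total after scaling by edgeR's TMM factors. KO 3 also stood apart by its share of mitochondrial reads, 12.8% beside 3.53 to 4.88% elsewhere.

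CC chemokines are small secreted proteins that bind glycosaminoglycans in tissue and attract leukocytes through receptors coupled to inhibitory G proteins. Inflammatory members are induced in stromal, epithelial and myeloid cells and draw in monocytes, T cells, eosinophils or neutrophils. Homeostatic members guide lymphocytes and dendritic cells to lymph nodes or to the gut lining. Many inflammatory ligands bind several receptors, and many receptors bind several ligands.

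The family is named for adjacent cysteines near the start of the mature protein, and all 23 ligand rows with a coding sequence in GENCODE M21 held 2 cysteine codons in a row. The coding sequence around that pair is shown for 5 neighbouring genes of a cluster on chromosome 11, because these neighbours differed from each other across the libraries, and for Ccl28, the member with the smallest p. Each sequence is spliced, reads 5′ to 3′ on the + strand of GRCm38 and has the cysteine codons in capitals. Each span of coordinates holds an intron.
Ccl2, chr11:82035731-82036571: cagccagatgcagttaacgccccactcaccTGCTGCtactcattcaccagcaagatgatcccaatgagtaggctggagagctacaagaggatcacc
Ccl7, chr11:82045850-82046603: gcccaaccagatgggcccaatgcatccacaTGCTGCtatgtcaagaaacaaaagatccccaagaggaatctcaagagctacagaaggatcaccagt
Ccl11, chr11:82058030-82061761: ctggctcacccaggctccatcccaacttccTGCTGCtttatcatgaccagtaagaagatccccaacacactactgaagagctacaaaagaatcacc
Ccl12, chr11:82101966-82102699: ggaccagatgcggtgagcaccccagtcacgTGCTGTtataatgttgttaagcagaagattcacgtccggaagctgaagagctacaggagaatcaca
Ccl8, chr11:82115300-82116121: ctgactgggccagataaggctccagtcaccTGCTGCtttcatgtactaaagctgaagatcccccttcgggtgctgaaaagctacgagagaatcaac
Ccl28, chr13:119623930-119645957: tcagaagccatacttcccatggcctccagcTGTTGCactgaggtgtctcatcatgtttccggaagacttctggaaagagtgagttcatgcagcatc

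Whole coding sequences of these 5 neighbours were 44.9 to 66.3% identical over the columns of 10 pairwise global alignments, gaps included. The other group on chromosome 11, Ccl3, Ccl4, Ccl5, Ccl6 and Ccl9, gave 45.3 to 68.1% in 10 pairs. Ccl21a and Ccl21b on chromosome 4 were 99.5% identical over 399 columns. Counts of the Ccl21 copies are uncertain for that reason, since how reads with several matches were counted is not stated. The scaffold copies of Ccl21 were not aligned.

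Of the 40 rows, 28 had enough reads to be tested, 19 for ligands and 9 for receptors, among 16861 genes tested. No member passed an adjusted p of 0.05 in edgeR's quasi-likelihood test, and 0 of all 16861 genes did (0%). At an unadjusted p under 0.05 there were 3 members (10.7% of 28, beside 24.1% of all genes). They were Ccl2 and Ccl11, both higher under the knockout label (2 of 28, beside 11.8%), and Ccl28, lower (1 of 28, beside 12.3%). DESeq2 called the same 3 members at an adjusted p under 0.05, beside 10.6% of the genes it tested (4.06% higher and 6.5% lower). At an unadjusted p it had 5 members, beside 24.7% of its genes. The members' share was thus near or under the background by either tool. Log2 ratios were positive in 16 of 28 members, beside 53.1% of all genes, with a median of 0.31 for ligands, 0.37 for receptors and 0.061 for all genes. The ligand median turned to -0.11 without WT 2, and the receptor median to -0.22 without KO 1 and -0.18 without WT 2.

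**Figure D1:**
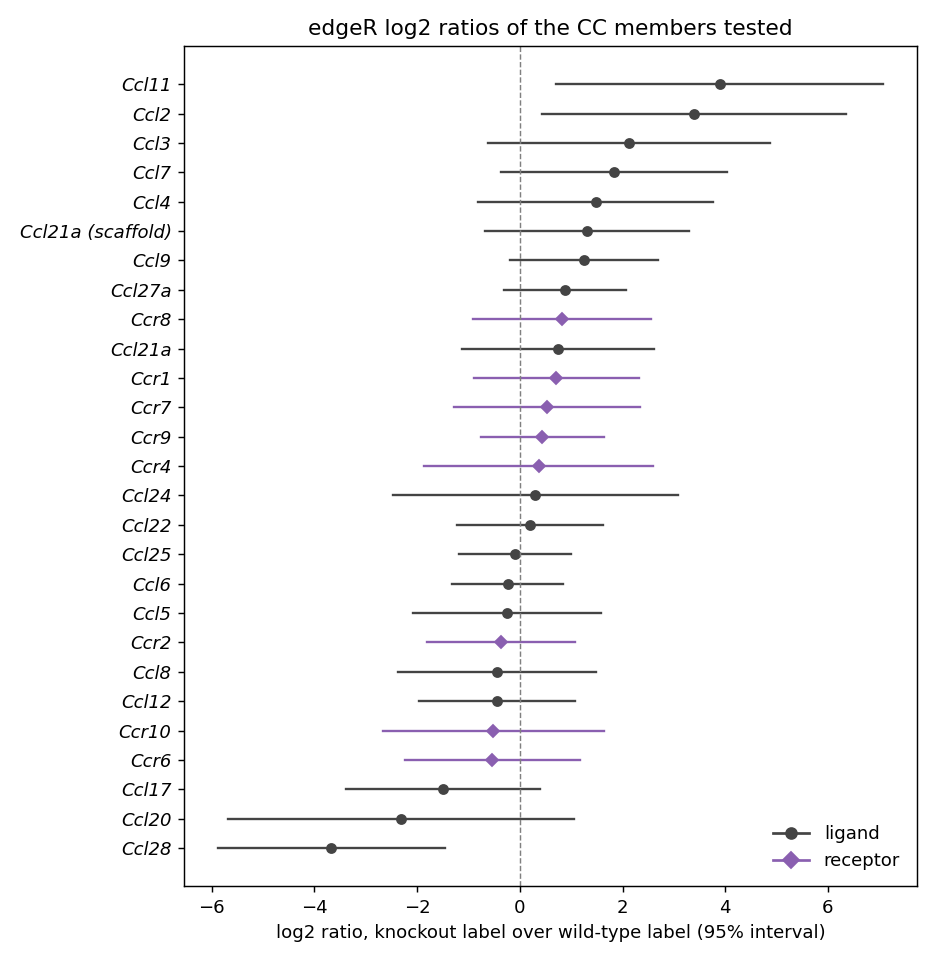
Log2 ratio of the knockout label over the wild-type label (x axis) for 27 of the 28 CC members tested (y axis), with 95% intervals from edgeR's quasi-likelihood fit (n = 3 libraries a group); circles are ligands and diamonds receptors. The intervals of Ccl11 and Ccl2 lie above 0, that of Ccl28 lies below 0, and all others include 0.

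CC transcripts varied more within either label than the typical gene did. The highest and lowest wild-type library differed by a median of 2.06 on the log2 scale over the 28 members. Over all 16861 genes, which were not matched for level, that median was 0.64. Under the knockout label the medians were 2.28 for the members and 1.04 for all genes. WT 1 held the highest wild-type value in 22 of 28 members (78.6%, beside 35.5% of all genes), and WT 2 the lowest in 19 of 28 (67.9%, beside 39.4%). Relative to the wild-type mean of log2 CPM, the median ligand was at 1.14, -0.96 and -0.15 under the wild-type label and at -0.29, 1.44 and 0.34 under the knockout label. WT 1 and KO 2 were thus the libraries with the highest median ligand. Ccl28 was the only member tested whose groups did not overlap, 1 of 28 (3.57%), beside 32.3% of all genes (15% higher and 17.3% lower).

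**Figure D2:**
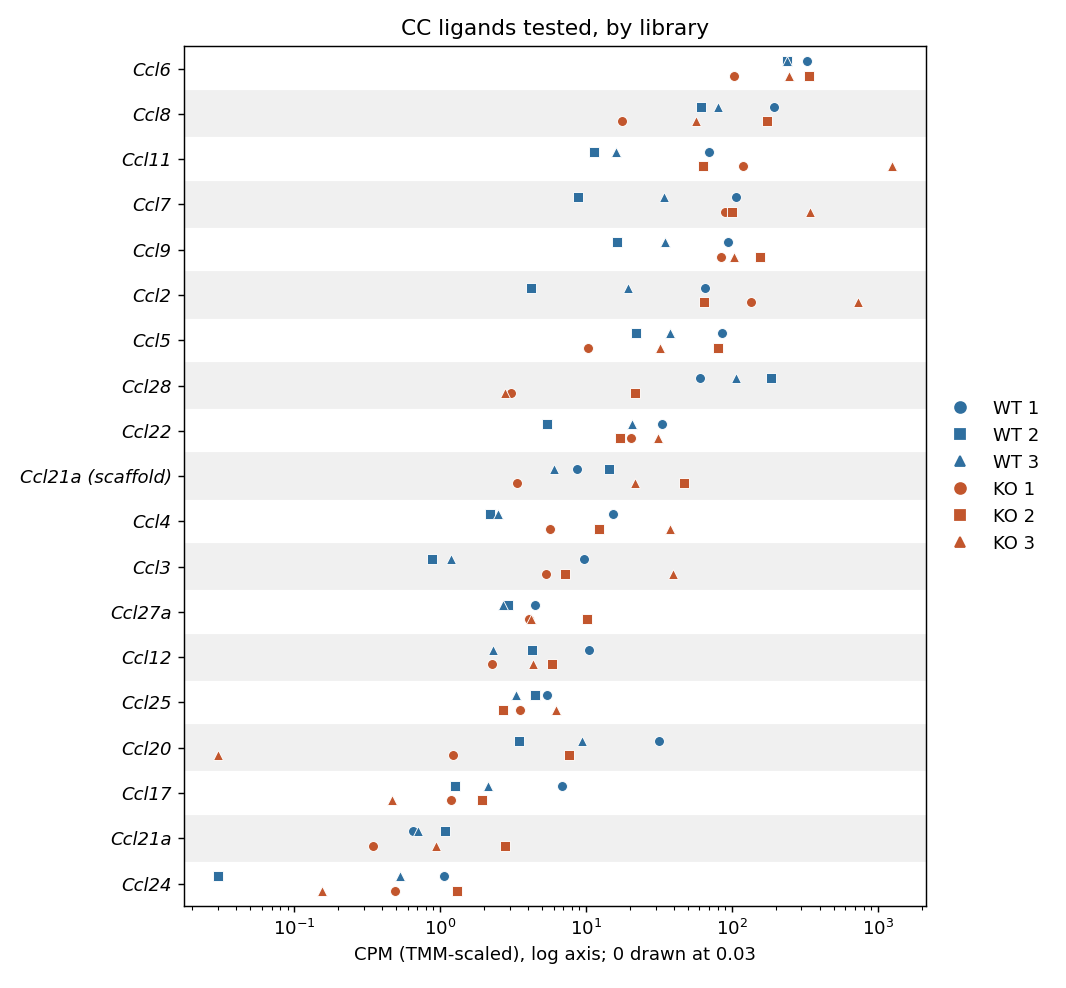
CPM on a log axis (x) for the 19 ligand rows tested (y), 1 symbol per library, wild-type label in blue and knockout label in orange; a value of 0 is drawn at 0.03. WT 1 is the highest wild-type library in 16 of the 19 rows, and KO 3 lies far to the right for Ccl11, Ccl2 and Ccl7.

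Ccl2, Ccl7 and Ccl11, neighbours on chromosome 11 whose products attract monocytes and eosinophils, had their highest levels in KO 3. Ccl2 encodes MCP-1, the ligand by which CCR2 draws monocytes out of bone marrow and into tissue (ENSMUSG00000035385, chromosome 11, 82035571 to 82037453). Ccl2 measured 65.9, 4.18 and 19.4 CPM under the wild-type label against 136, 64.7 and 733 CPM under the knockout label. KO 1 and KO 3 lay above every wild-type library, while KO 2 lay just below WT 1, so the groups overlapped. Means were 29.8 ± 32.2 and 311 ± 367 CPM (SD, n = 3 each), a log2 ratio of 3.38 ± 1.25 (SE). The adjusted p was 0.168 by edgeR and 0.00932 by DESeq2. The log2 ratio of Ccl2 was 1.72 without KO 3 and 4.69 without WT 1.

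Ccl11 encodes eotaxin-1, a ligand of CCR3 that recruits eosinophils (ENSMUSG00000020676, chromosome 11, 82057823 to 82062955). Ccl11 measured 69.9, 11.4 and 16.0 CPM under the wild-type label against 119, 63.9 and 1263 CPM under the knockout label. KO 2 again lay below WT 1, and KO 3 stood far above the rest. Means of 32.5 ± 32.5 and 482 ± 677 CPM (SD, n = 3 each) gave a log2 ratio of 3.89 ± 1.35 (SE), with an adjusted p of 0.155 by edgeR and 0.00297 by DESeq2. Without KO 3 the log2 ratio was 1.46. Neither Ccl2 nor Ccl11 kept an unadjusted p under 0.05 in edgeR without WT 2, WT 3 or KO 3 (13.3%, 15% and 18.8% of all genes did) or with no filter on low counts (14.5%).

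Ccl7 encodes MCP-3, a further ligand of CCR2 (ENSMUSG00000035373, chromosome 11, 82045712 to 82047525). Ccl7 measured 107, 8.86 and 34.2 CPM under the wild-type label against 90.0, 101 and 344 CPM under the knockout label. Only KO 3 exceeded WT 1. The log2 ratio of 1.84 ± 0.93 (SE) had an adjusted p of 0.279 by edgeR, and was 0.91 without KO 3 and 3.02 without WT 1.

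Ccl12 and Ccl8, the next genes of the same cluster, did not show that pattern. Ccl12, another mouse ligand of CCR2 (ENSMUSG00000035352, chromosome 11, 82101845 to 82103400), measured 10.5, 4.24 and 2.30 CPM under the wild-type label against 2.27, 5.89 and 4.35 CPM under the knockout label. Ccl8, whose mouse product acts on CCR8 (ENSMUSG00000009185, chromosome 11, 82115185 to 82116799), measured 195, 61.8 and 80.4 CPM under the wild-type label against 17.6, 173 and 56.8 CPM under the knockout label. KO 1 and KO 3, the libraries highest in Ccl2, held the lowest values of Ccl8. Log2 ratios were -0.45 ± 0.65 (SE) for Ccl12 and -0.45 ± 0.82 (SE) for Ccl8, and both changed sign without WT 1. Per length, the level of Ccl2 divided by that of Ccl8 was 0.152, 0.0303 and 0.108 under the wild-type label against 3.48, 0.168 and 5.79 under the knockout label. For Ccl11 over Ccl8 the quotient was 0.169, 0.0870 and 0.0942 under the wild-type label against 3.19, 0.174 and 10.5 under the knockout label. In both quotients WT 1 and KO 2 were close, and KO 1 and KO 3 were far above all other libraries. The quotients were chosen after the values were seen and were not tested.

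Ccr2 is the gene of the receptor of Ccl2, Ccl7 and Ccl12 on inflammatory monocytes (ENSMUSG00000049103, chromosome 9, 124101950 to 124113557). It did not go with Ccl2 under the knockout label, while under the wild-type label both were highest in WT 1 and lowest in WT 2. Ccr2 measured 77.6, 24.7 and 58.0 CPM under the wild-type label against 34.0, 74.1 and 16.2 CPM under the knockout label. Its log2 ratio was -0.37 ± 0.61 (SE), with a 95% interval of -1.80 to 1.07 and an adjusted p of 0.74 by edgeR. KO 3, the library highest in Ccl2, was lowest in Ccr2. Ccl2 over Ccr2 per length, a quotient also chosen after the values were seen and not tested, was 5.04, 1.00 and 1.99 under the wild-type label against 23.8, 5.19 and 268 under the knockout label. KO 2 was close to WT 1 in it. The 12 macrophage and monocyte markers summed to 1375, 639.6 and 908 CPM under the wild-type label against 1168, 1404 and 1140.1 CPM under the knockout label. Cd14 alone gave 709 CPM of the sum of KO 3. The median marker of this list differed from its wild-type average by log2 values of 0.55, -0.56 and -0.055 under the wild-type label. Under the knockout label these were -0.069, 0.62 and -0.93, so KO 3 was lowest by the median, as in Ccr2. Of the 12 markers 5 had a positive and 7 a negative log2 ratio. Itgam at 1.55 and Cd14 at 1.62 had an unadjusted p under 0.05 (2 of 12, beside 24.1% of all genes). None of the 12 was at 0 in a whole group.

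Summed levels of neutrophil, fibroblast and blood endothelial markers are given beside Ccl2, Ccl7 and Ccl11. The 8 neutrophil markers summed to 431, 9.43 and 51.6 CPM under the wild-type label against 1296, 1213 and 7219.9 CPM under the knockout label. KO 3 was the highest, and all 7 neutrophil markers tested were positive, 5 of them at an unadjusted p under 0.05 (beside 11.8% of all genes). The 8 fibroblast markers summed to 2005, 1526 and 2642 CPM under the wild-type label against 7032, 4299 and 5287 CPM under the knockout label, and all 8 were positive. KO 1, not KO 3, was highest in that list. Dcn alone gave 3515 CPM of the fibroblast sum of KO 3. The median fibroblast marker differed from its wild-type average by log2 values of 1.45, 0.96 and 0.62 under the knockout label. Of the 8 markers 5 were higher without overlap. Col3a1 and Col1a2 lay within the wild-type range in KO 3, and Col1a1, at 92.5 CPM, lay below it. The 7 markers of blood endothelium summed to 301, 161 and 259.6 CPM under the wild-type label against 470.2, 299 and 1085 CPM under the knockout label, and all 7 were positive. None of these lists had a marker at 0 in a whole group, and their part in the chemokine values was not tested. In these bulk samples a different number of cells of a type and a different amount of RNA per cell cannot be told apart.

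**Figure D3:**
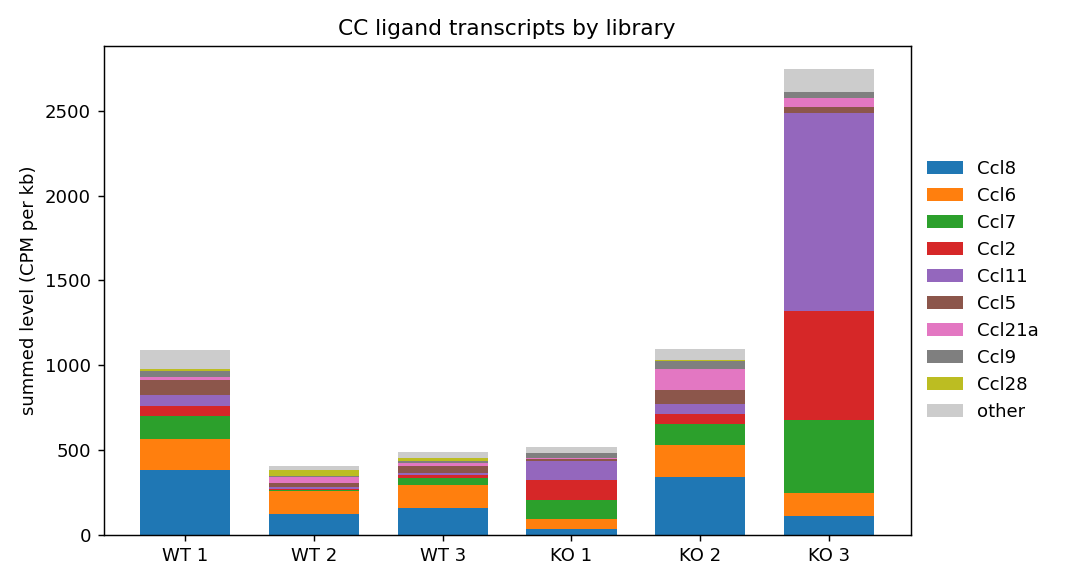
Summed level of CC ligand transcripts in CPM per kilobase of gene length (y axis) for each library (x axis), with colours for the ligands named and light grey for the others. The totals are 406 to 1088 under the wild-type label and 517, 1094 and 2746 in KO 1, KO 2 and KO 3, where Ccl11, Ccl2 and Ccl7 fill most of KO 3.

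Which ligand led differed between libraries. On the scale of CPM per kilobase of the deposited gene length, Ccl8 led in WT 1 at 382, in WT 3 at 157 and in KO 2 at 339, and Ccl6 led in WT 2 at 134. Ccl2 led in KO 1 at 119.9, closely followed by Ccl7 at 112 and Ccl11 at 109.7. Ccl11 led in KO 3 at 1167, ahead of Ccl2 at 644 and Ccl7 at 429.9. The order of the leading ligands in KO 2 (Ccl8, Ccl6, Ccl7) was that of WT 1 and WT 3.

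Among the neighbouring ligands of the other chromosome 11 group, which attract monocytes, T cells and neutrophils, Ccl3 and Ccl4 were also highest in KO 3. Ccl3 encodes MIP-1 alpha (ENSMUSG00000000982, chromosome 11, 83647844 to 83649355). Ccl3 measured 9.75, 0.886 and 1.18 CPM under the wild-type label against 5.29, 7.21 and 39.4 CPM under the knockout label. Ccl4, the gene of MIP-1 beta (ENSMUSG00000018930, chromosome 11, 83662584 to 83664683), measured 15.2, 2.21 and 2.48 CPM under the wild-type label against 5.68, 12.4 and 37.5 CPM under the knockout label. For both, KO 1 and KO 2 lay between the wild-type libraries and only KO 3 lay above WT 1. Log2 ratios were 2.13 ± 1.16 (SE) for Ccl3 and 1.47 ± 0.97 (SE) for Ccl4, with adjusted p of 0.305 and 0.386 by edgeR. With 1 library left out they ran from 0.65 to 4.03 for Ccl3 and from 0.43 to 2.95 for Ccl4, lowest without KO 3 and highest without WT 1.

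Ccl9, a CCR1 ligand made by myeloid cells (ENSMUSG00000019122, chromosome 11, 83572919 to 83578636), measured 94.2, 16.5 and 34.9 CPM under the wild-type label against 84.3, 157 and 103 CPM under the knockout label. KO 2 and KO 3 exceeded WT 1, and KO 1 lay below it. The log2 ratio was 1.24 ± 0.61 (SE), with an adjusted p of 0.264 by edgeR, and ran from 0.81 without WT 2 to 2.14 without WT 1. Without WT 1, Ccl7, Ccl9, Ccl3, Ccl4 and Ccr1 joined Ccl2, Ccl11 and Ccl28 at an unadjusted p under 0.05, making 8 of 28 members where 19.9% of all genes passed. None of them then had an adjusted p under 0.05 in edgeR.

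Ccl6, the other CCR1 ligand of this group (ENSMUSG00000018927, chromosome 11, 83587882 to 83593087), had the highest mean log2 CPM of the members. Ccl6 measured 329, 240.4 and 239 CPM under the wild-type label against 103, 340.2 and 245 CPM under the knockout label. Ccl5, or RANTES, a product of T and NK cells (ENSMUSG00000035042, chromosome 11, 83525778 to 83530518), measured 85.8, 21.9 and 37.8 CPM under the wild-type label against 10.4, 79.8 and 32.2 CPM under the knockout label. Both were lowest in KO 1, where Ccl2 was above every wild-type library. Log2 ratios were -0.23 ± 0.46 (SE) for Ccl6 and -0.25 ± 0.77 (SE) for Ccl5, and both changed sign without KO 1. The 10 T cell markers summed to 152, 76.8 and 117 CPM under the wild-type label against 77.6, 136 and 67.0 CPM under the knockout label, with 3 positive and 7 negative.

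Ccr1, a receptor of monocytes and neutrophils (ENSMUSG00000025804, chromosome 9, 123962124 to 123968692), measured 67.4, 9.05 and 28.6 CPM under the wild-type label against 57.8, 78.9 and 35.1 CPM under the knockout label. Only KO 2 lay above WT 1, and KO 1 and KO 3 lay within the wild-type range. The log2 ratio of Ccr1 was 0.71 ± 0.68 (SE), with an adjusted p of 0.548 by edgeR.

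**Figure D4:**
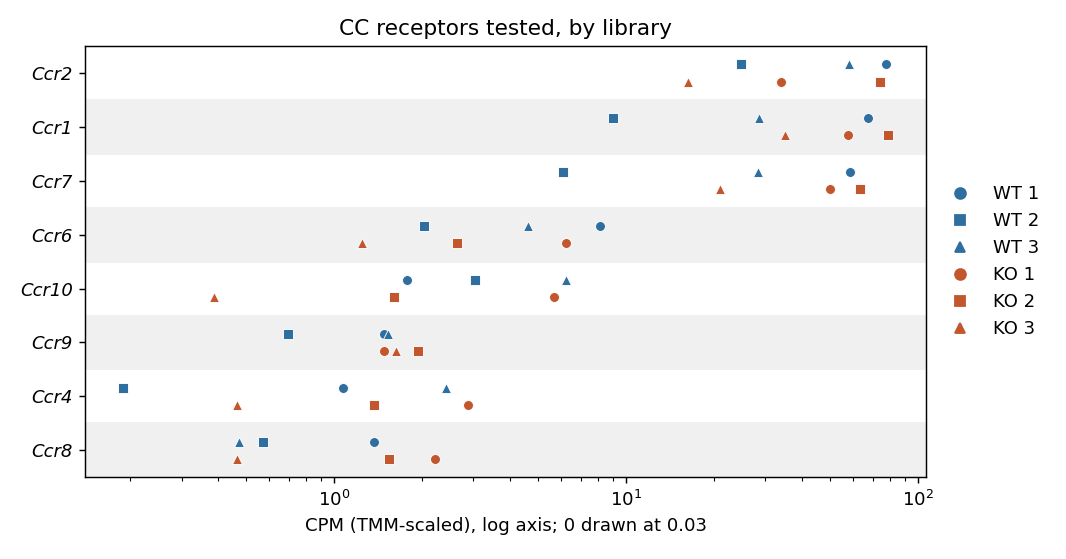
CPM on a log axis (x) for 8 of the 9 CC receptors tested (y), 1 symbol per library, wild-type label in blue and knockout label in orange. WT 2 is the lowest wild-type library in 6 of the 8 receptors, and in none do the groups lie apart.

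The 9 receptors tested had log2 ratios between -0.54 and 0.82, and their adjusted p ran from 0.52 to 0.837 by edgeR. None had an unadjusted p under 0.05, beside 24.1% of all genes. The intervals are wide: that of Ccr4 ran from -1.87 to 2.60, so differences of several fold either way lie within it.

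The eosinophil receptor Ccr3 had too few reads for a test, 5, 0 and 2 reads under the wild-type label against 2, 7 and 0 reads under the knockout label. KO 3, the library with 16252 reads of the CCR3 ligand Ccl11, held no read of Ccr3, which allows up to 0.233 CPM from 3 counts (counting error only). Ccl24, the gene of eotaxin-2 (ENSMUSG00000004814, chromosome 5, 135569937 to 135573049), had 18, 0 and 9 reads under the wild-type label against 10, 23 and 2 reads under the knockout label. Ccl26, the gene of eotaxin-3, had no read in any library. Of the 6 eosinophil markers, Epx had no read in any library. Ear1 had 2, 0 and 0 reads under the wild-type label and none under the knockout label, too few for a test. The list summed to 75.5, 3.42 and 43.5 CPM under the wild-type label against 30.0, 40.6 and 3.96 CPM under the knockout label, most of it, in every library but WT 2, from Il5ra, a receptor gene named here after its values were seen.

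Ccl28 and Ccl20, ligands made by the epithelium of the colon, had lower means under the knockout label. Ccl28 attracts plasma cells that carry CCR10 to mucosal surfaces (ENSMUSG00000074715, chromosome 13, 119623819 to 119654359). Ccl28 measured 60.1, 186 and 106 CPM under the wild-type label against 3.06, 21.8 and 2.80 CPM under the knockout label. Every library of the knockout label lay below every wild-type library. Means were 117 ± 63.9 and 9.22 ± 10.9 CPM (SD, n = 3 each), a fitted ratio of 0.0787 with a 95% interval of 0.0169 to 0.366. The log2 ratio was -3.67 ± 0.94 (SE), with an adjusted p of 0.107 by edgeR and 0.00021 by DESeq2. Without KO 2 it was -5.36 and passed in edgeR (adjusted p = 0.0152, where 10.4% of the genes tested passed). Over all alternatives run, edgeR and DESeq2 gave Ccl28 adjusted p from 0.00021 to 0.329.

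Ccl20 encodes the ligand by which CCR6 draws dendritic cells and lymphocytes to the epithelium over lymphoid follicles (ENSMUSG00000026166, chromosome 1, 83116766 to 83119167). Ccl20 measured 31.7, 3.48 and 9.38 CPM under the wild-type label against 1.24, 7.66 and 0 CPM under the knockout label. KO 2 lay between WT 2 and WT 3, so the groups overlapped, and the count of 0 in KO 3 allows up to 0.233 CPM. The log2 ratio was -2.31 ± 1.43 (SE), with an adjusted p of 0.359 by edgeR. It was -1.11 without WT 1 and -4.54 without KO 2, where Ccl20 reached an unadjusted p under 0.05, as 31.3% of all genes did. WT 2, lowest of its label in Ccl20, was highest of its label in Ccl28.

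Epithelial markers were lower beside both ligands. The 12 markers summed to 16851, 25386 and 18974 CPM under the wild-type label against 1243, 8344 and 88.4 CPM under the knockout label. All 12 had a negative log2 ratio, 11 without overlap (beside 17.3% of all genes) and 4 at an unadjusted p under 0.05 (beside 12.3%), and none was at 0 in a whole group. Relative to the wild-type mean on the log2 scale, the median marker was at -3.86, -1.32 and -7.81 in the knockout libraries, beside -5.06, -2.27 and -5.18 for Ccl28 and -2.92, -0.40 and -6.42 for Ccl20. KO 2 was the least and KO 3 the most reduced in all of these, although KO 1 and KO 3 were close in Ccl28. Under the wild-type label the median marker was at -0.35, 0.44 and -0.0031, beside -0.82, 0.81 and 0.0018 for Ccl28. Ccl20 ran the other way there, at 1.63, -1.51 and -0.12. The part of the epithelial markers in these values was not tested.

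**Figure D5:**
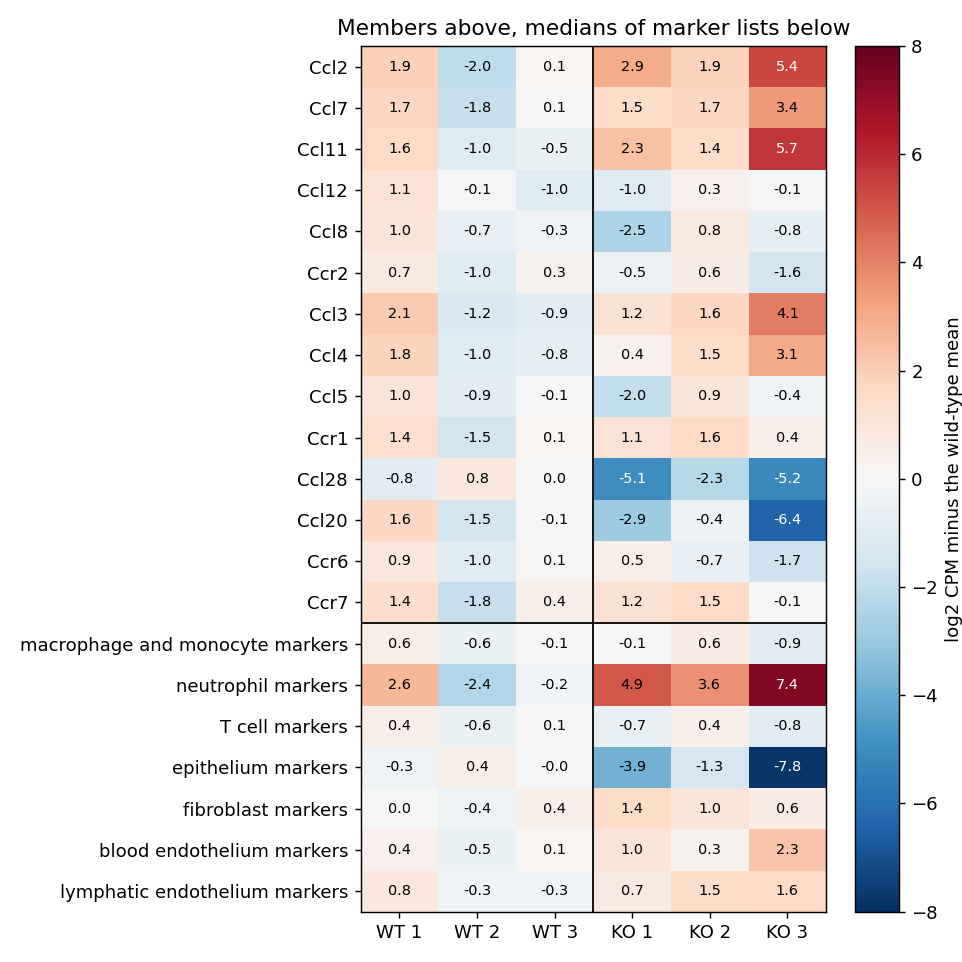
Difference of log2 CPM (prior count 2) from the wild-type mean, by library (columns), for 14 CC members (rows above the line) and for the medians of 7 marker lists (rows below); red is higher and blue lower. In KO 3, Ccl2, Ccl7 and Ccl11 are at 5.37, 3.43 and 5.75 and the neutrophil median at 7.42, while Ccl28 and Ccl20 are at -5.18 and -6.42 and the epithelial median at -7.81.

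The 250 bases before the start sites of Ccl28 and Ccl20 are shown because both ligands were low in KO 1 and KO 3. They come from RefSeq on GRCm38.p6 and read 5′ to 3′ on the + strand. Capitals mark a match to the NF-kB consensus, which was searched on both strands with TGANTCA for AP-1 and TTCNNNGAA for STAT factors.
Ccl28, chr13:119623569-119623818: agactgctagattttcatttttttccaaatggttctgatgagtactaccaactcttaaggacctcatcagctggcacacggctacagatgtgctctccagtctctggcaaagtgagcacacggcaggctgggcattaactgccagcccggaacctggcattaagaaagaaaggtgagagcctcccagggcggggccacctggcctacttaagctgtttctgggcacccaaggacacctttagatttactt
Ccl20, chr1:83116516-83116765: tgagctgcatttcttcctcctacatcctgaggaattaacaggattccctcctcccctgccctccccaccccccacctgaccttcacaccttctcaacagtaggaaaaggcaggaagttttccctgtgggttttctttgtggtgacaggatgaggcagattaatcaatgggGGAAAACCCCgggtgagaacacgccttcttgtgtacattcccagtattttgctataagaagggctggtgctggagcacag

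The Ccl20 window held 1 NF-kB match, which begins 80 bases before the start site. The Ccl28 window held no match in the stretch shown and 1 AP-1 match beyond the start site. Of the 34 symbols, 23 had a promoter window of 250 bases before to 50 bases after a start. Among those without one were Ccl2, Ccl4, Ccl5, Ccl7, Ccl11, Ccl21c, Ccl24, Ccl26, Ccr7 and Ccr10. An NF-kB match was in 7 of 30 windows (23.3%, beside 8.46% of all 32851 windows), those of Ccl1, Ccl9, Ccl20, Ccl27a, Ccr1, Ccr3 and Ccr6. An AP-1 match was in 7 of 30 windows (23.3%, beside 7.81%) and a STAT match in 2 (6.67%, beside 8.30%). A match is a string of letters, not a bound site, and windows of 1 gene can overlap.

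The receptors of these mucosal ligands were sparse. Ccr6, the receptor of Ccl20 (ENSMUSG00000040899, chromosome 17, 8236043 to 8257141), had 137, 32 and 78 reads under the wild-type label against 126, 46 and 16 reads under the knockout label and a log2 ratio of -0.54 ± 0.72 (SE). Ccr10, the receptor for Ccl28 on plasma cells (ENSMUSG00000044052, chromosome 11, 101172997 to 101175443), measured 1.78, 3.04 and 6.25 CPM under the wild-type label against 5.68, 1.60 and 0.389 CPM under the knockout label, with a log2 ratio of -0.51 ± 0.91 (SE). KO 1 was high in Ccr10 and low in Ccl28. The 5 plasma cell markers summed to 1089.6, 1246 and 1358 CPM under the wild-type label against 2661, 1516 and 479 CPM under the knockout label. Ccr10 overlaps Cntnap1 on the other strand, which had 1053 reads in KO 1 and 93 to 301 elsewhere, and whether counting used strand is not stated.

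Ccl25 and Ccr9, the pair that guides lymphocytes to the small intestine, were low in all libraries. Ccl25 (ENSMUSG00000023235, chromosome 8, 4325210 to 4360020) measured 5.41, 4.49 and 3.30 CPM under the wild-type label against 3.51, 2.69 and 6.22 CPM under the knockout label. Its log2 ratio of -0.093 ± 0.46 (SE) was the smallest in size among the members tested. Ccr9 (ENSMUSG00000029530, chromosome 9, 123678439 to 123784330) measured 1.49, 0.696 and 1.53 CPM under the wild-type label against 1.48, 1.94 and 1.63 CPM under the knockout label, a log2 ratio of 0.44 ± 0.51 (SE). Ccl25 overlaps Elavl1 and Ccr9 overlaps Lztfl1, both on the other strand and both with more reads than the CC gene in every library. Ccl27a, a ligand of CCR10 known from skin (ENSMUSG00000073888, chromosome 4, 41769467 to 41774247), measured 4.46, 2.91 and 2.71 CPM under the wild-type label against 4.05, 10.2 and 4.20 CPM under the knockout label. KO 2 held its highest value, and the log2 ratio was 0.87 ± 0.51 (SE). Ccl27a overlaps Il11ra1 on the other strand, which was also highest in KO 2, at 2128 reads beside 804 to 1188 elsewhere.

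Lymph node homing was followed through Ccr7, Ccl19 and the Ccl21 copies. Ccr7 lets dendritic cells and naive T cells follow CCL19 and CCL21 (ENSMUSG00000037944, chromosome 11, 99144196 to 99155077). Ccr7 measured 58.6, 6.07 and 28.4 CPM under the wild-type label against 50.1, 63.4 and 20.9 CPM under the knockout label, with a log2 ratio of 0.53 ± 0.77 (SE). Per length it was the highest receptor in WT 1, WT 3, KO 1 and KO 2, while Ccr2 led in WT 2 and Ccr1 in KO 3. The 6 rows of Ccl21 copies were added, because Ccl21a and Ccl21b on chromosome 4 are nearly identical. The scaffold rows were not aligned. The 6 rows came to 11.2, 15.8 and 7.14 CPM under the wild-type label against 4.10, 51.7 and 22.9 CPM under the knockout label. KO 2 was the highest and KO 1 the lowest, so the groups overlapped. Most of these reads fell in the Ccl21a row of a scaffold (ENSMUSG00000095320), whose log2 ratio was 1.31 ± 0.84 (SE) with an adjusted p of 0.375 by edgeR. It was 0.33 without KO 2 and 1.85 without KO 1, where it reached an unadjusted p under 0.05, as 21% of all genes did. The chromosome 4 row of Ccl21a was at 0.74 ± 0.80 (SE). The 6 markers of lymphatic endothelium, the vessels that make CCL21, summed to 329, 121 and 126 CPM under the wild-type label against 283, 501 and 633 CPM under the knockout label. All 6 were positive, none was at 0 in a whole group, and their part in the Ccl21 values was not tested. Ccl19 had 0 to 4 reads per library.

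Ligands of CCR4, which draw regulatory and helper T cells, overlapped between the groups. Ccl22 (ENSMUSG00000031779, chromosome 8, 94745590 to 94751699) measured 33.4, 5.44 and 20.6 CPM under the wild-type label against 20.2, 17.0 and 31.2 CPM under the knockout label. All knockout libraries lay inside the wild-type range of Ccl22. Ccl17 (ENSMUSG00000031780, chromosome 8, 94810453 to 94812036) measured 6.89, 1.27 and 2.12 CPM under the wild-type label against 1.19, 1.94 and 0.466 CPM under the knockout label. Log2 ratios were 0.20 ± 0.60 (SE) for Ccl22 and -1.50 ± 0.80 (SE) for Ccl17, with adjusted p of 0.863 and 0.297 by edgeR. That of Ccl17 was -0.51 without WT 1. Ccr4, the receptor of both, had 18, 3 and 41 reads under the wild-type label against 58, 24 and 6 reads under the knockout label and a log2 ratio of 0.37 ± 0.95 (SE). Ccr8, the receptor of Ccl8 and Ccl1 on regulatory T cells, had 23, 9 and 8 reads under the wild-type label against 45, 27 and 6 reads under the knockout label and a log2 ratio of 0.82 ± 0.74 (SE).

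Of the 12 rows not tested, 4 had no read in any library: Ccl26, Ccl21b on chromosome 4 and scaffold rows of Ccl27a and Ccl19. Ccl1, a ligand of CCR8, had 0 to 14 reads per library, and Ccl27b had 3 reads in KO 2 alone. A scaffold row of Ccl21c had 4 to 30 reads. The other scaffold rows of Ccl21b, Ccl21c and Ccl27a had 0 to 1.

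Other genes of the chemokine system were read from lists. Of 8 atypical and other chemokine receptors, 7 were tested, 5 positive and 2 negative. An unadjusted p under 0.05 was reached by 4 (57.1%, beside 24.1% of all genes). Of these, 3 were higher (beside 11.8%) and 1 was lower (beside 12.3%). The 3 named next are the higher ones, and the lowest log2 ratio of the list was -2.31. Ackr3, a scavenger of CXC chemokines, measured 44.6, 16.6 and 27.5 CPM under the wild-type label against 77.9, 66.8 and 279.6 CPM under the knockout label. Its groups did not overlap (beside 15% of all genes, higher) and its log2 ratio was 2.26. Ackr1, which carries chemokines across venules, had a log2 ratio of 2.97, and Ccrl2, which presents chemerin, one of 1.13. Cx3cl1, the epithelial and endothelial ligand fractalkine, measured 162, 148 and 170.0 CPM under the wild-type label against 17.8, 77.8 and 11.1 CPM under the knockout label. Its log2 ratio was -2.17, and that of Xcl1, a chemokine of NK and T cells, was -2.90. Both were without overlap, beside 17.3% of all genes that were lower without overlap.

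Of 26 signalling genes 16 were positive and 10 negative with a median of 0.24, and 4 had an unadjusted p under 0.05 (15.4%, under the 24.1% of all genes). Plcb3, a phospholipase that acts below G proteins, was the lowest at -2.11, while Rgs2, a regulator of G protein signalling, was at 1.45 and the receptor kinase gene Grk5 at 0.99. Among 8 genes for cleavage or binding of chemokines 7 were positive (beside 53.1% of all genes) and 5 had an unadjusted p under 0.05 (62.5%, beside 24.1%). Mmp2, a protease, was at 1.39 and Sdc4, a heparan sulfate carrier, at 1.55, while Dpp4, a peptidase that trims chemokines, was at -1.64. Among 18 transcription regulators 11 were positive and 7 negative, and 5 had an unadjusted p under 0.05 (27.8%, near the 24.1% of all genes). Cebpb, a factor of inflammatory transcription, measured 326, 83.5 and 186 CPM under the wild-type label against 606, 483 and 1175 CPM under the knockout label. The interferon regulatory factor genes Irf1 and Irf8 were at -1.38 and -1.12. No gene of these lists passed after adjustment over all genes by edgeR, the smallest adjusted p being 0.094 for Plcb3. With no filter 0.622% of all genes passed by edgeR, and with the replicate block 0.0178% did (20.8% at an unadjusted p), but 0 CC members in either.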

How the data were processed

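Read counts per gene were used as deposited. Adaptor, poly-N and poor reads had been removed by the authors, as the labels' protocols say. The submitters' processing notes name, without roles, featureCounts 1.5.0-p3, HISAT2 2.0.5, DESeq2 and StringTie 1.3.3b with the builds GRCm38 and mm10. Annotation release, strand setting and treatment of multiple matches: not given in the sources used here.

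In R 4.3.3, genes were filtered with edgeR 4.0.16 (filterByExpr, minimum count 10, minimum total 15) and libraries scaled by TMM. Labels were compared by a robust quasi-likelihood fit with no covariate, and p-values adjusted by Benjamini-Hochberg over all genes at 0.05. Log2 CPM had a prior count of 2. Alternatives were DESeq2 1.42.0, other scalings (RLE, upper quartile), unfiltered genes, a replicate block and leaving out each library. Same-numbered libraries deviated together with correlations of -0.20, 0.087 and -0.075, so numbers were not taken as pairs. No 2 libraries of a label were copies of each other (chi-square per degree of freedom between their counts 50.7 to 253). 1 receptor is counted in the totals and not reported here. Every other member tested is named, with up to 3 genes of each other list by smallest p and markers at 0 in a group. Members and lists were chosen with earlier results of these data known.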

Additional observations from a re-analysis of the deposited data

How the results depend on the processing

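The count of genes past the adjusted threshold was 0 in the edgeR fit, 192 with no filter, 2034 with DESeq2 and 0 to 1813 with 1 library left out, the highest without KO 2. Past that threshold were 0 CC members, 3 with DESeq2 and 0 to 1 with 1 library left out. At an unadjusted p under 0.05 were 3 members, 1 with no filter, 5 with DESeq2 and 1 to 8 with 1 library left out, the lowest without WT 2, WT 3 or KO 3 and the highest without WT 1. Under the replicate block 3 genes and 0 members passed, and 2 members had an unadjusted p under 0.05. With 1 library left out the median log2 ratio ran from -0.11 to 0.78 for ligands and from -0.22 to 0.46 for receptors. Log2 ratios that changed sign in that way ran from -0.67 to 0.13 for Ccl6, -1.63 to 0.21 for Ccl8, -1.23 to 0.45 for Ccl5, -0.28 to 0.78 for Ccl22, -0.83 to 0.34 for Ccl12 and -0.53 to 0.10 for Ccl25. They ran from -0.41 to 1.22 for Ccl21a on chromosome 4, -0.71 to 1.27 for Ccl24, -1.14 to 0.0083 for Ccr2, -1.84 to 0.089 for Ccr10, -0.38 to 1.31 for Ccr4 and -0.57 to 0.60 for Itgbl1. Upper-quartile scaling moved the median of all genes from 0.061 to 0.21 and Ccl25 to 0.066. The cause of these changes was not tested. Ccl2, Ccl7, Ccl11, Ccl3, Ccl4 and Ccl9 stayed positive and Ccl28, Ccl20 and Ccl17 negative under every alternative run. A stable sign was not particular to them. Ccl27a, the scaffold row of Ccl21a, Ccr1, Ccr7, Ccr8 and Ccr9 also stayed positive and Ccr6 negative, though Ccr7 fell to 0.017. Rows with few reads, such as Ccr3 and Ccl1, are limited by depth.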
